A study of Homo sapiens with 12 samples.

Results

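The genes described are HLA-B, HLA-C, HLA-E, HLA-F and HLA-G, which encode heavy chains of HLA class I molecules, B2M, their shared light chain, and TAP1, TAP2 and TAPBP, which load them with peptide. These 9 genes were chosen by symbol among 19775 genes, and 28 of 54675 probe sets carried exactly 1 of the symbols. For each gene the probe set with the highest mean over all 12 arrays was used. That mean ignores the groups, so the means are a description, and comparisons between groups were not used in the choice of probe set. The 9 genes themselves were chosen with earlier results of these data known, so counts of calls among them are a description too. Every other probe set of the genes is described as well.

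The cells were Sk-hep1, an established human line that the labels place in liver and ascites and call an endothelial adenocarcinoma. High-fat medium (HFM) was based on DMEM/F12 and growth medium (GM) on DMEM, so the basal medium differed together with the fat, and the 2 cannot be told apart. There were 4 groups of 3 arrays, HFM for 12 hours, GM for 12 hours, HFM for 24 hours and GM for 24 hours, and the design asks how a high-fat environment changes the transcriptome. All groups were of this 1 line with no genetic change named, while no source used here gives the amount or kind of fat. Nothing in the labels states that the 3 arrays of a group came from separate cultures, so the spread between them may be technical.

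Class I molecules stand on nearly every nucleated cell and show peptides made inside the cell to CD8 T cells. Proteasomes and cytosolic peptidases cut proteins into peptides, TAP1 and TAP2 together carry the peptides into the endoplasmic reticulum, and tapasin (TAPBP) holds an empty heavy chain with B2M at the transporter until a peptide fits. HLA-B and HLA-C are classical, highly polymorphic heavy chains, HLA-E is read by inhibitory receptors of natural killer cells, and HLA-F and HLA-G are nonclassical. Interferon gamma is a known inducer of these genes through IRF1 and NLRC5, and liver and endothelial cells respond to it.

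All members but B2M lie in the major histocompatibility complex, from the first base of HLA-F at 29723434 to the last base of TAPBP at 33314078 on chromosome 6 (GRCh38.p14), and B2M lies at chr15:44711517-44718145. Bases upstream of the start of 5 members are shown because known control motifs of class I genes lie in this stretch. They are RefSeq reference sequence of GRCh38.p14, the 250 bases before each start, written 5′ to 3′ along the gene's own strand. Capitals mark matches to any of 5 motifs on either strand, some overlapping: an interferon response element (GAAANNGAAA), a pair of IRF half-sites (AANNGAAA, which overlaps the first), a kappaB-like site (GGGNNTTNCC), a cAMP response half-site (TGACG) and a CCAAT box (CCAAT).
HLA-B, chr6:31357180-31357429, minus strand: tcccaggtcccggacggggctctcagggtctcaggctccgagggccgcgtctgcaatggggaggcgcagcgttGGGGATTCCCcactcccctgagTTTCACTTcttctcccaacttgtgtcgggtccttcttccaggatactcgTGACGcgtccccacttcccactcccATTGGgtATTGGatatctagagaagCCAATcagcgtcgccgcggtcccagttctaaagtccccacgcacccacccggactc
B2M, chr15:44711267-44711516, plus strand: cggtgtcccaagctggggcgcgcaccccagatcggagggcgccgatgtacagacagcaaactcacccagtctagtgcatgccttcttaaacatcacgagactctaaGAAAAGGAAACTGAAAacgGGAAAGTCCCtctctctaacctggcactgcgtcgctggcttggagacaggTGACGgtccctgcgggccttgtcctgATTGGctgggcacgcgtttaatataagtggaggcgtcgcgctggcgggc
TAP1, chr6:32853705-32853954, minus strand: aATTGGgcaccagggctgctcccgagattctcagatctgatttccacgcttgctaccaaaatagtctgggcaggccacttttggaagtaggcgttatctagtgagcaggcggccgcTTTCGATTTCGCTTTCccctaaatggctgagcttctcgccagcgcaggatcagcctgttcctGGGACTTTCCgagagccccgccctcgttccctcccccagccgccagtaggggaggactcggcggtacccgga
TAP2, chr6:32838740-32838989, minus strand: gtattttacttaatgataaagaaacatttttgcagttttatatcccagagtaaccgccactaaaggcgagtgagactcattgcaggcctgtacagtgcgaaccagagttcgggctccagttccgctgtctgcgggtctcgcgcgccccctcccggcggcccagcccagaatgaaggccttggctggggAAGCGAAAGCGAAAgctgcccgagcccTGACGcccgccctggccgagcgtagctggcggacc
TAPBP, chr6:33314079-33314328, minus strand: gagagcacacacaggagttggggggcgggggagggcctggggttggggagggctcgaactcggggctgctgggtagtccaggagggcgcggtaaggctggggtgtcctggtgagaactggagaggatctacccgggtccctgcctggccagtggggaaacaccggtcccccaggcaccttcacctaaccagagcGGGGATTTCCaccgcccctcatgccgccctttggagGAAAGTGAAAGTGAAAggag

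Of the 9 members, 8 had windows in the promoter table, 11 windows in all (250 bases before to 50 after a start), and HLA-E is named only. A member was counted when any of its windows matched, whereas the percentages are of single windows, so the units differ. The interferon response element was found in 5 of these 8 members (HLA-F, B2M, TAP1, TAP2 and TAPBP) and in 3.57% of all 35116 windows of the table. A kappaB-like site was found in 4 (HLA-B, B2M, TAP1 and TAPBP) and in 5.68% of all windows. The looser IRF half-site pair was found in all of the 8 but HLA-G, and in 22.8% of all windows. TGACG was found in 4 members and in 24.6% of windows, and CCAAT in 6 members and in 34.6% of windows. In HLA-B the kappaB-like match lay at -177 to -168 from the start, and in TAP1 at -72 to -63. A match is only a run of letters, and binding of a factor was not measured here.

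Values are log2 GCRMA intensities, so a difference of 1 is a 2-fold change, and a level is read only within 1 probe set. Array medians over all probe sets lay between 4.05 and 4.09. HFM 12-hour replicate 1 stood apart from its group, with a mean correlation to the other 2 arrays of 0.992, where every other array had 0.995 or more. It also shared with the 3 GM 12-hour arrays the high class of the hybridisation spike-in controls, at 10.55 beside 10.60 to 10.63 in those GM arrays, while the remaining 8 arrays read 10.23 to 10.43. The results at 12 hours that rest on this array are given with and without it. No 2 arrays held identical values. The labelled endothelial type was only partly visible in its markers, since 5 of 12 reached log2 4 on at least 3 arrays, and CDH5, KDR, VWF, ERG and TIE1 stayed below that level.

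On the main probe sets HLA-B and HLA-C had the largest gain of the heavy chains in HFM at 24 hours, while 200904_at, a further probe set of HLA-E, rose by 0.84. HLA-B read 11.26, 11.05 and 11.11 in HFM and 11.28, 11.28 and 11.28 in GM at 12 hours. At 24 hours it read 11.39, 11.33 and 11.32 in HFM and 10.88, 10.86 and 10.82 in GM. The HFM arrays thus lay below the GM arrays at 12 hours and above them at 24 hours, without overlap at either time. At 12 hours the gap was narrow, from 11.26 to 11.28, and on both further probe sets of HLA-B the media overlapped. HLA-C read 11.05, 10.91 and 10.91 in HFM and 11.14, 11.11 and 11.18 in GM at 12 hours. Its values at 24 hours were 11.17, 11.18 and 11.22 in HFM and 10.72, 10.66 and 10.67 in GM. HLA-C showed the same crossing as HLA-B, but on its further probe set 211799_x_at the media overlapped at 12 hours. These are bulk samples, so a change in every cell and a change in the share of cells that carry the transcript cannot be told apart.

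On their main probe sets HLA-E, HLA-F and HLA-G had their highest means in GM at 12 hours and their lowest in GM at 24 hours. HLA-E read 11.05, 10.74 and 10.72 in HFM and 11.15, 11.13 and 11.12 in GM at 12 hours. At 24 hours HLA-E read 10.86, 10.77 and 10.78 in HFM and 10.56, 10.47 and 10.40 in GM. The HFM arrays of HLA-E overlapped between the 2 times, whereas the GM arrays did not. On the further probe set 200904_at HLA-E instead had its highest mean in HFM at 24 hours (8.82), against 8.27 in GM at 12 hours. HLA-F read 8.98, 8.68 and 8.70 in HFM and 8.96, 8.94 and 8.96 in GM at 12 hours, with replicate 1 of HFM above all 3 GM arrays. At 24 hours HLA-F read 8.66, 8.64 and 8.70 in HFM and 8.41, 8.39 and 8.41 in GM, with no overlap. HLA-G, best known from the placenta, read 9.36, 9.14 and 9.15 in HFM and 9.53, 9.62 and 9.50 in GM at 12 hours. HLA-G then read 9.17, 9.12 and 9.21 in HFM and 9.05, 8.97 and 8.89 in GM at 24 hours. The medium groups of HLA-G did not overlap at either time, but the gap at 24 hours was the narrowest of the 5 heavy chain genes.

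B2M, without which class I heavy chains do not reach the surface, varied least between the media. It read 12.13, 12.49 and 12.53 in HFM and 12.46, 12.44 and 12.42 in GM at 12 hours. At 24 hours B2M read 12.67, 12.74 and 12.69 in HFM and 12.51, 12.49 and 12.58 in GM. Replicate 1 of HFM at 12 hours was its lowest array, and the medium groups overlapped at 12 but not at 24 hours.

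TAPBP and TAP2 held the largest medium differences at 24 hours, and TAP1 the largest at 12 hours. TAP1 read 8.68, 8.25 and 8.21 in HFM and 8.86, 8.83 and 8.85 in GM at 12 hours. Its arrays at 24 hours read 8.68, 8.64 and 8.66 in HFM and 8.22, 8.24 and 8.17 in GM. TAP1 was therefore lower in HFM at 12 hours and higher at 24 hours on every array. TAP2, its partner in the transporter, read 8.17, 7.93 and 7.99 in HFM and 7.69, 7.71 and 7.70 in GM at 12 hours. At 24 hours TAP2 read 8.55, 8.58 and 8.59 in HFM and 7.76, 7.82 and 7.79 in GM. TAP2 was higher in HFM on every array at both times, unlike TAP1. TAPBP read 8.16, 7.89 and 7.81 in HFM and 7.83, 7.77 and 7.82 in GM at 12 hours, where 1 of the 3 HFM arrays fell among the GM arrays. TAPBP read 8.44, 8.34 and 8.40 in HFM and 7.55, 7.51 and 7.47 in GM at 24 hours, the widest gap of all 9 members.

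**Figure D1:**
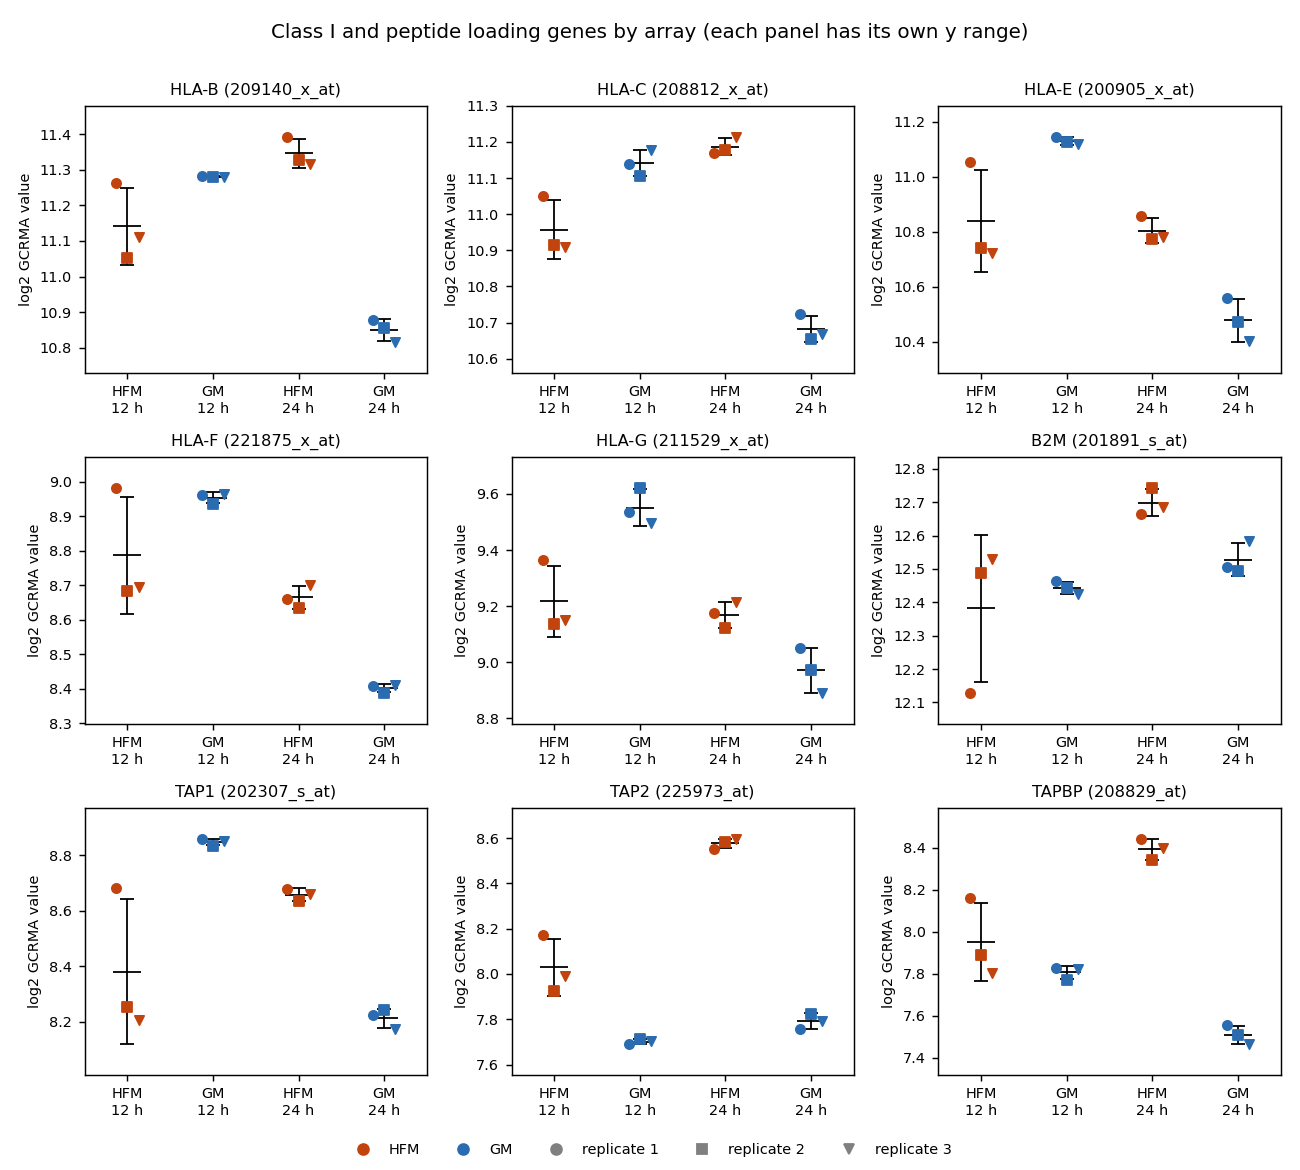
Log2 GCRMA value of the main probe set of each of the 9 genes on 12 arrays, in the groups HFM 12 hours, GM 12 hours, HFM 24 hours and GM 24 hours; points are arrays, symbols mark the replicate number, lines are the mean and SD (n = 3), and each panel has its own y range. HFM lies above GM at 24 hours in all 9 panels, and HFM 12-hour replicate 1 lies apart from the other 2 arrays of its group in most.

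HFM was set against GM at 12 hours in 1 linear model of all 12 arrays, with adjusted p over 13130 tested genes. Here 1 member was higher and 4 were lower in HFM, and 4 did not pass. TAP2 rose by 0.33 ± 0.06 (log2 difference ± SE, as below, n = 3 arrays per group, adjusted p = 0.00065). TAP1 fell by 0.47 ± 0.10 (adjusted p = 0.00161), and HLA-G fell by 0.33 ± 0.07 (adjusted p = 0.00158). HLA-E fell by 0.29 ± 0.08 (adjusted p = 0.0083) and HLA-C by 0.18 ± 0.05 (adjusted p = 0.00949). Those not passing were HLA-B at -0.14 ± 0.06 (adjusted p = 0.0512), HLA-F at -0.17 ± 0.07, B2M at -0.06 ± 0.09 and TAPBP at 0.14 ± 0.08. Among all genes tested 61.9% were called, 28.9% higher and 33% lower, so 5 calls among 9 members did not exceed the share of the whole array. The groups did not overlap in 6 members, against 63.6% of all genes. The members' median difference was -0.17, beside -0.07 for all genes.

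The calls at 12 hours depended on HFM 12-hour replicate 1 and on the processing. Without that array, HLA-B fell by 0.20 (adjusted p = 0.00119) and HLA-F by 0.26 (adjusted p = 7.5e-05), so that 6 members were lower and 1 higher. TAP1 then fell by 0.62. B2M changed sign to 0.07 without passing the test. Without HFM 12-hour replicate 3, TAPBP passed at 0.22 (adjusted p = 0.0321). With the spike-in class as a term, which compares HFM with GM at 12 hours through that 1 array, HLA-C at -0.09 and HLA-E at -0.08 were no longer called, and HLA-F was at 0.03. HLA-C also lost its call when the 2 groups at 12 hours were fitted alone (adjusted p = 0.0533). With all arrays, HLA-B and HLA-F were called lower with a filter at log2 6, centred arrays, repeated quantile normalisation or a robust trended variance. In each of these fits 1 member was higher and 6 were lower, where 61.2% to 70.1% of all genes were called. In the fit with the spike-in class as a term, B2M was at -0.31 and TAPBP at 0.35.

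At 24 hours 8 of 9 members were higher in HFM, none was lower, and B2M did not pass. TAPBP rose by 0.88 ± 0.08, or 1.84-fold (adjusted p = 1.4e-06), and TAP2 by 0.79 ± 0.06, or 1.72-fold (adjusted p = 4.0e-07). HLA-C rose by 0.51 ± 0.05 (adjusted p = 4.7e-06), HLA-B by 0.50 ± 0.06 (adjusted p = 1.2e-05) and TAP1 by 0.45 ± 0.10 (adjusted p = 0.00197). HLA-E rose by 0.33 ± 0.08, HLA-F by 0.26 ± 0.07 and HLA-G by 0.20 ± 0.07 (adjusted p = 0.0295). B2M differed by 0.17 ± 0.09 (adjusted p = 0.12). Of all genes tested, 58.1% were called at this time, 20.6% higher and 37.5% lower. The arrays of the 2 media did not overlap in any of the 9 members, as in 68.7% of all genes. The median difference was 0.45 over the members and -0.08 over all genes. Each array was also centred on the median of its tested genes. This put the median of all genes at 0.10, and all 9 members were then higher in HFM.

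HLA-G lost its call at 24 hours without GM 24-hour replicate 2 (adjusted p = 0.0664) or 3 (0.11) and without HFM 24-hour replicate 1 (0.0675) or 3 (0.0933), and B2M passed without HFM 12-hour replicate 1 (0.00231). The 3′ minus 5′ difference of the ACTB control probe sets was 1.53 to 1.64 in HFM and 1.02 to 1.12 in GM at 24 hours. For GAPDH it was 0.26 to 0.30 in HFM and 0.14 to 0.18 in GM. The part of RNA integrity in the differences at 24 hours was not tested.

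**Figure D2:**
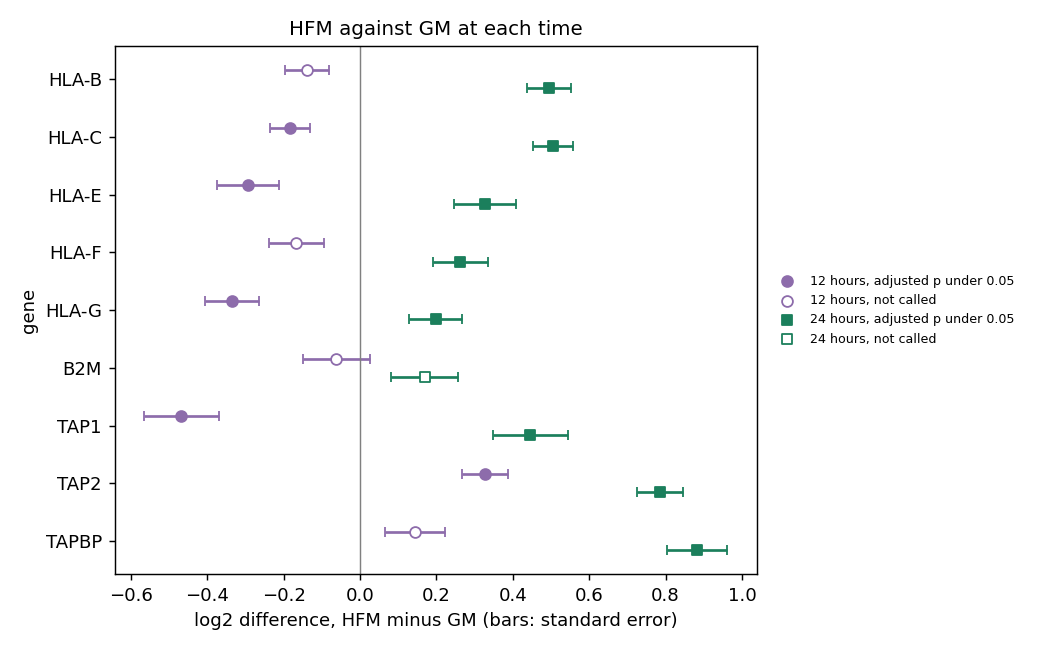
Log2 difference of HFM minus GM for each gene at 12 hours (purple circles) and 24 hours (green squares), with standard errors; filled symbols have an adjusted p under 0.05. At 12 hours TAP2 is the single gene called higher at 0.33 and TAP1 the lowest at -0.47, and at 24 hours all 9 symbols lie right of 0.

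The HFM effect itself differed between the times. The effect at 24 hours minus that at 12 hours was positive and called in 8 of 9 members, and 52.8% of all genes were called in this test, 19.4% upward and 33.4% downward. TAP1 had the largest value, 0.91 ± 0.14 (adjusted p = 0.00018), followed by TAPBP at 0.74 ± 0.11 and HLA-C at 0.69 ± 0.07. HLA-B reached 0.63 ± 0.08, HLA-E 0.62 ± 0.11, HLA-G 0.53 ± 0.10, TAP2 0.46 ± 0.09 and HLA-F 0.43 ± 0.10. B2M was at 0.23 ± 0.12 (adjusted p = 0.137). The members' median was 0.62, beside -0.04 over all genes. Without HFM 12-hour replicate 1 the same number of members was called and TAP1 stood at 1.06. Across the times the 3′ minus 5′ difference of ACTB was 0.69 to 0.92 in HFM and 0.86 to 0.91 in GM at 12 hours, against 1.53 to 1.64 in HFM and 1.02 to 1.12 in GM at 24 hours, and its part in this difference and in the changes with time was not tested. Of 9 class II genes 7 were called upward in this test as well (median 0.68), as were 8 of 9 genes that help load peptide (median 0.48). So were 3 of 5 tested epithelial markers and 2 of 4 hepatocyte markers. Of 14 genes that supply peptides 1 was called upward and 6 downward, and of 4 leukocyte markers none was called.

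Within HFM the members rose or stayed between 12 and 24 hours, and within GM most of them fell. In HFM, 6 of 9 members were higher at 24 hours and none was lower, where 63.1% of all genes were called, 20.1% higher and 43.1% lower. TAP2 rose by 0.55 ± 0.06 (adjusted p = 7.8e-06) and TAPBP by 0.44 ± 0.08 (adjusted p = 0.00038). B2M rose by 0.32 ± 0.09, TAP1 by 0.28 ± 0.10, HLA-C by 0.23 ± 0.05 and HLA-B by 0.20 ± 0.06. HLA-E (-0.03 ± 0.08), HLA-F (-0.12 ± 0.07) and HLA-G (-0.05 ± 0.07) did not pass, but once each array was centred HLA-E at 0.18 and HLA-G at 0.17 were called higher and HLA-F was at 0.10 without passing. The groups of 5 members did not overlap, against 65.9% of all genes. With probe sets as features, 200904_at of HLA-E rose by 0.60 ± 0.10 (adjusted p = 0.00019), while 204769_s_at of TAP2 was at -0.0039 ± 0.09 and did not pass. Nor did 211911_x_at (0.04) and 208729_x_at (-0.005) of HLA-B, 216231_s_at of B2M (0.02), 211799_x_at of HLA-C (0.004) and 1555565_s_at of TAPBP (0.02). Called higher were 214459_x_at (0.18) and 216526_x_at (0.32) of HLA-C and 210294_at of TAPBP (0.57). So was 232311_at of B2M (2.63), which passed the filter through HFM at 24 hours. TAP1 lost its call when any of HFM 12-hour replicates 2 (adjusted p = 0.103) and 3 (0.112) or HFM 24-hour replicates 1 (0.0678), 2 (0.0517) and 3 (0.0616) was left out. B2M rose by 0.19 without HFM 12-hour replicate 1, against 0.32 with it, and TAP1 by 0.43. When the 2 HFM groups were fitted alone, 4 members were higher, and HLA-B (adjusted p = 0.0539) and TAP1 (0.0952) no longer passed.

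In GM 7 of 9 members were lower at 24 than at 12 hours, none was higher, and 69.9% of all genes were called, 29.4% higher and 40.5% lower. HLA-E fell by 0.65 ± 0.08 (adjusted p = 2.2e-05), TAP1 by 0.64 ± 0.10 and HLA-G by 0.58 ± 0.07. HLA-F fell by 0.55 ± 0.07, HLA-C by 0.46 ± 0.05, HLA-B by 0.43 ± 0.06 and TAPBP by 0.30 ± 0.08 (adjusted p = 0.00533). B2M (0.08 ± 0.09) and TAP2 (0.09 ± 0.06) did not pass, and TAP2 passed without HFM 12-hour replicate 1 (adjusted p = 0.0332). With probe sets as features, 204769_s_at of TAP2 fell by 0.35 ± 0.09 (adjusted p = 0.00546), and 204770_at was at -0.16 ± 0.09 without passing. The arrays of the 2 times did not overlap in any of the 9 members, as in 78.9% of all genes. The members' median was -0.46 and that of all genes -0.12. The GM 24-hour arrays serve in both this comparison and the medium comparison at 24 hours, and the HFM 24-hour arrays likewise, so these sets of values share measurements. All 3 GM 12-hour arrays were in the high spike-in class and all 3 GM 24-hour arrays in the low one. Epithelial markers fell as well in GM, 5 of 5 tested with a median of -0.66, as did 4 of 5 endothelial markers (median -0.50) and 9 of 9 class II genes (median -0.67), and their part in the members' fall was not tested. With the spike-in class as a term TAPBP was at 0.02 and B2M was lower, at -0.29.

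**Figure D3:**
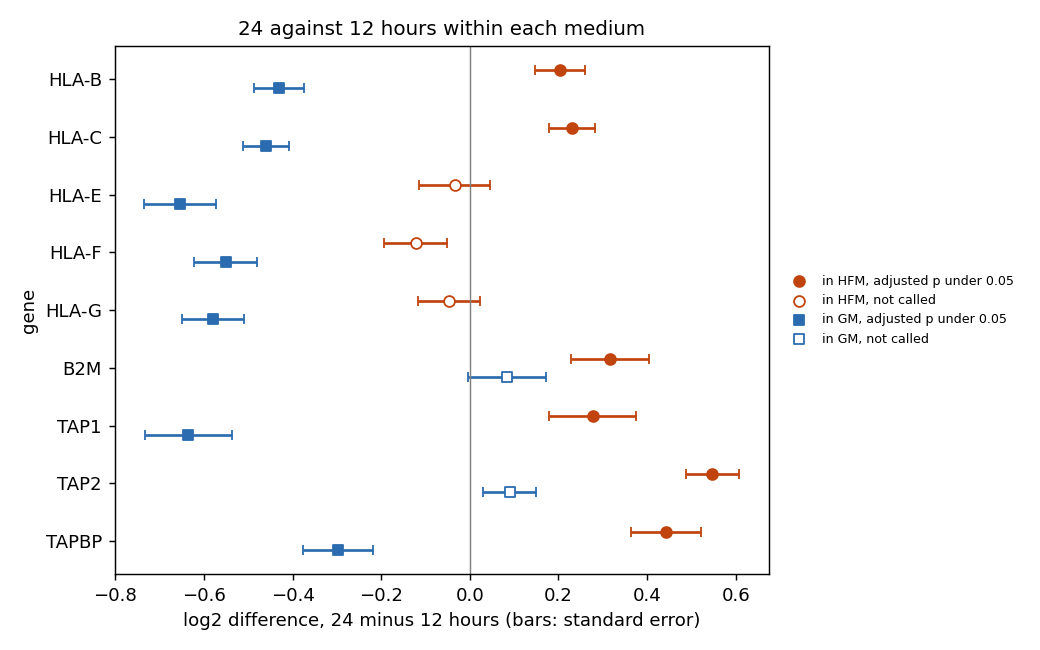
Log2 difference of 24 minus 12 hours for each gene in HFM (orange circles) and in GM (blue squares), with standard errors; filled symbols have an adjusted p under 0.05. The GM squares of 7 genes are called and lie left of 0, down to -0.65 for HLA-E, and the HFM circles of 6 genes are called and lie right of it, up to 0.55 for TAP2; once each array is centred, HLA-E (0.18), HLA-F (0.10) and HLA-G (0.17) in HFM also lie right of 0.

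Ordered by group means of their main probe sets, the members fell into a few patterns. HLA-B was highest in HFM at 24 hours (11.35 ± 0.04, SD), then in GM at 12 hours, HFM at 12 hours and GM at 24 hours (10.85 ± 0.03), with no overlap between neighbours. HLA-C had the same order, but its HFM 24-hour and GM 12-hour arrays overlapped. On the further probe sets 211911_x_at and 208729_x_at HLA-B was instead highest in GM at 12 hours (10.10 and 9.84). There HFM at 24 hours averaged 10.01 and 9.71. HLA-C was likewise highest in GM at 12 hours on 214459_x_at and 211799_x_at, whereas 216526_x_at kept the order of the main probe set. HLA-E, HLA-F and HLA-G were highest in GM at 12 hours, followed by HFM at 12 hours, HFM at 24 hours and GM at 24 hours. In these 3 genes the 2 HFM groups overlapped, and in HLA-F the 2 groups at 12 hours did too. TAP1 was highest in GM at 12 hours (8.85 ± 0.01) and lowest in GM at 24 hours (8.21 ± 0.03), and the HFM 12-hour arrays overlapped both the HFM 24-hour and the GM 24-hour arrays. TAP2 ran from HFM at 24 hours (8.58 ± 0.02) through HFM at 12 hours and GM at 24 hours to GM at 12 hours (7.70 ± 0.01), without overlap. On the further probe set 204769_s_at, TAP2 was instead highest in GM at 12 hours (7.91 ± 0.04) and lowest in GM at 24 hours (7.56 ± 0.13). TAPBP was highest in HFM at 24 hours (8.39 ± 0.05), and its 2 groups at 12 hours overlapped. B2M was highest in HFM at 24 hours and its 2 groups at 12 hours overlapped.

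The other probe sets of the genes mostly moved the same way at 24 hours. HLA genes are near-identical in long stretches, and probe sets of type x can bind related transcripts, so levels of single HLA genes are uncertain. All tested probe sets of HLA-B, HLA-C and HLA-G are of this type. Of the 28 probe sets 27 were tested, and 208428_at of TAP2 reached log2 4 on 0 arrays. With probe sets as features, 1 of 27 was higher and 11 lower in HFM at 12 hours, where 59% of 29787 probe sets were called, 33.2% higher and 25.7% lower. At 24 hours 23 were higher and none lower, with 58.2% of all probe sets called, 24.8% higher and 33.4% lower. In the difference between the times 23 were called upward, where 52.1% of all were called, 19.7% upward and 32.4% downward. Both counts of 23 include 232311_at of B2M and 221978_at of HLA-F. These passed the filter through HFM at 24 hours, so their calls follow from the filter and add nothing to the counts.

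Probe sets without a type letter had some of the larger values. For B2M, 232311_at read 6.52, 6.51 and 6.36 in HFM and 4.05, 3.79 and 3.72 in GM at 24 hours, a difference of 2.61 ± 0.17. At 12 hours it read 4.27, 3.41 and 3.82 in HFM and 3.73, 3.78 and 3.77 in GM. It reached log2 4 on 5 arrays, 3 of them HFM at 24 hours, so it was tested largely because it was high there, and the difference is a description. Both other B2M probe sets, which are of type s, differed by 0.17 and 0.05 at 24 hours, and neither passed. Probe sets of B2M thus disagreed in size by far more than their errors. For HLA-F, 221978_at read 4.80, 4.94 and 5.08 in HFM and 3.59, 3.86 and 3.80 in GM at 24 hours, and reached log2 4 on 4 arrays, so the same holds. For HLA-E, 200904_at reached log2 4 on all 12 arrays and read 8.85, 8.75 and 8.85 in HFM and 7.97, 8.01 and 7.94 in GM at 24 hours. Its difference of 0.84 ± 0.10 (adjusted p = 1.2e-05) was larger than the 0.33 and 0.29 of both type x probe sets of HLA-E. At 12 hours 200904_at was at -0.06 ± 0.10 and did not pass.

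Probe sets of TAP2, TAPBP, HLA-F and B2M differed in sign at 12 hours. For HLA-F, 204806_x_at fell by 0.24 ± 0.07 and 221978_at was at 0.14 ± 0.14 without passing. For TAP2 the main probe set rose by 0.33 in HFM, whereas 204769_s_at was at -0.11 ± 0.09 and 204770_at at -0.11 ± 0.09, neither of which passed. At 24 hours 204769_s_at rose by 0.24 ± 0.09 (adjusted p = 0.0455) and 204770_at was at 0.15 ± 0.09. The mean of the probe sets of TAP2 was at 0.04 at 12 hours and did not pass. TAPBP rose at 24 hours on its 3 probe sets, by 0.88, 0.27 and 0.48. The 3 further HLA-C probe sets rose by 0.35 to 0.57, and both further HLA-B probe sets by 0.35 and 0.37. Among HLA-G probe sets, 211530_x_at was at 0.12 ± 0.07 at 24 hours and did not pass, although it had the largest fall of the gene at 12 hours, 0.44 ± 0.07.

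**Figure D4:**
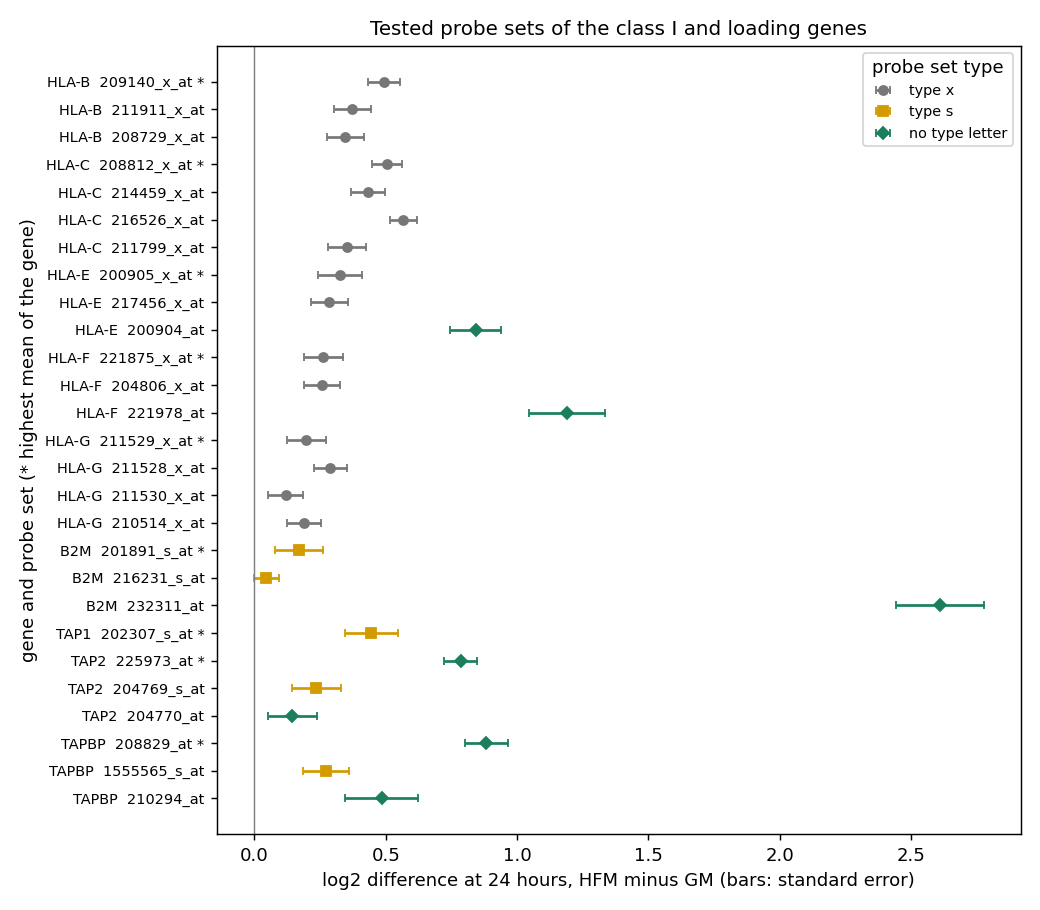
Log2 difference of HFM minus GM at 24 hours for the 27 tested probe sets of the 9 genes, with standard errors, by probe set type (grey circles type x, yellow squares type s, green diamonds no type letter; an asterisk marks the main probe set). All lie right of 0, from 0.05 for 216231_s_at to 2.61 for 232311_at, both of B2M.

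Across the 12 arrays HLA-B and HLA-C ran together (Pearson r = 0.98, as a description, since both are read by type x probe sets that can share transcripts). HLA-E correlated with HLA-F at 0.97 and with HLA-G at 0.97, and with TAP1, which is not homologous, at 0.90. TAP2 and TAPBP correlated at 0.90, while TAP2 had -0.05 with HLA-E and -0.22 with HLA-G. B2M stood apart from the heavy chains, with 0.06 to HLA-B, 0.11 to HLA-C, -0.42 to HLA-E and -0.50 to HLA-F. The arrays share their groups, so apart from those of B2M these values mostly describe the 4 group means. The values of B2M also rest on HFM 12-hour replicate 1. That array was the lowest for B2M (12.13), while HLA-E (11.05) and HLA-F (8.98) were higher on it than on the other arrays of its group. No correlation was computed without it.

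Among 9172 other genes with an SD of at least 0.2, the profile most like that of HLA-B over the 12 arrays was HCFC1R1 (r = 0.993), then VAT1 (0.986) and HYOU1, a chaperone of the endoplasmic reticulum (0.985). These 3 rose by 0.71, 0.69 and 0.71 in HFM at 24 hours. For TAP1 the nearest were PI4K2A (0.983), RAC3 (0.979) and RFNG (0.976), which fell by 0.32, 0.63 and 0.37 at 12 hours and rose by 0.39, 0.59 and 0.38 at 24 hours. For B2M they were THBS1 (0.983), PRKAR1A (0.977) and YWHAZ (0.975), none of which was called at either time.

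Genes that help load peptide moved with the members at 24 hours. Of 9 loading helpers 8 were higher in HFM and none lower, with a median of 0.46, and 4 were higher and 2 lower at 12 hours (median 0.15). PDIA3, the disulfide isomerase bound to tapasin, averaged 11.04 ± 0.04 in HFM and 10.41 ± 0.02 in GM at 24 hours (SD, n = 3) and rose by 0.63 ± 0.04 (adjusted p = 1.4e-07). CALR, the chaperone calreticulin, rose by 0.39 ± 0.07, and the tapasin-related TAPBPL by 0.46 ± 0.10. ERAP1 and ERAP2, which trim peptides to length, rose by 0.64 ± 0.05 and 0.87 ± 0.25. Without probe set types x, s and a, ERAP1 was at -0.20 and did not pass. BCAP31, which helps export class I molecules, was at -0.03 and did not pass. At 12 hours TAPBPL fell by 0.31 and BCAP31 by 0.32.

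Genes that supply peptides did not move as one. Of the 14 measured, 2 were higher and 6 lower in HFM at 12 hours, and 3 were higher and 7 lower at 24 hours (median -0.23). PSMB8 and PSMB9, catalytic subunits of the immunoproteasome, fell by 0.31 ± 0.10 and 0.44 ± 0.08 at 12 hours. At 24 hours PSMB9, a neighbour of TAP1 in the genome, rose by 0.23 ± 0.08 (adjusted p = 0.034), and PSMB8 was at -0.12 ± 0.10 and did not pass. PSMB5, a catalytic subunit of the standard proteasome, fell by 0.59 ± 0.07 at 24 hours, and PSME3, a proteasome activator, by 0.68 ± 0.08. Of 2 cytosolic peptidases THOP1 fell by 0.81 ± 0.09 and TPP2 rose by 0.27 ± 0.05 at that time.

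Among known regulators of class I genes 22 were measured, of which 7 were higher and 9 lower in HFM at 12 hours and 7 higher and 11 lower at 24 hours. IRF1, an activator of class I genes, averaged 6.67 ± 0.12 in HFM and 7.76 ± 0.06 in GM at 12 hours (SD, n = 3). At 24 hours it averaged 6.14 ± 0.13 in HFM, against 6.92 in GM. IRF1 thus fell by 1.09 ± 0.07 at 12 hours and by 0.78 ± 0.07 at 24 hours (adjusted p = 2.4e-06), a time at which 8 members were higher in HFM. NLRC5, the class I transactivator, was near the filter level, with 4.59 ± 0.11 in HFM and 5.02 ± 0.17 in GM at 12 hours. It fell by 0.43 ± 0.09 at 12 hours and was at 0.16 ± 0.09 at 24 hours, which did not pass. RFXANK, a subunit of the RFX factor, fell by 0.71 and 0.93, while NFYB, a subunit of the CCAAT-binding factor NF-Y, rose by 0.85 and 0.50 at 12 and 24 hours. NFKB1 fell by 0.83 and IFNAR1, a chain of the type I interferon receptor, by 1.29 at 24 hours. JAK2, a kinase of interferon signalling, rose by 0.96 at 12 and 0.27 at 24 hours.

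Related presentation genes were read as well. Of 7 measured class I-like genes, 2 were higher and 5 lower in HFM at 12 hours, and 2 were higher and none lower at 24 hours. MICA, a stress ligand of natural killer cells, rose by 0.84 ± 0.08 at 24 hours, and ULBP2, another such ligand, by 0.38 ± 0.08. MR1 and FCGRT, which pair with B2M, fell by 0.33 and 0.30 at 12 hours and were at 0.16 each at 24 hours without passing. Of 9 measured class II genes, 7 were lower in HFM at 12 hours and none higher, with HLA-DMB at -0.81, HLA-DMA at -0.73 and HLA-DPB1 at -0.51. At 24 hours 4 were higher and none lower, led by CD74, the invariant chain (0.34 ± 0.09), HLA-DRB1 (0.32 ± 0.10) and HLA-DPA1 (0.30 ± 0.05).

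**Figure D5:**
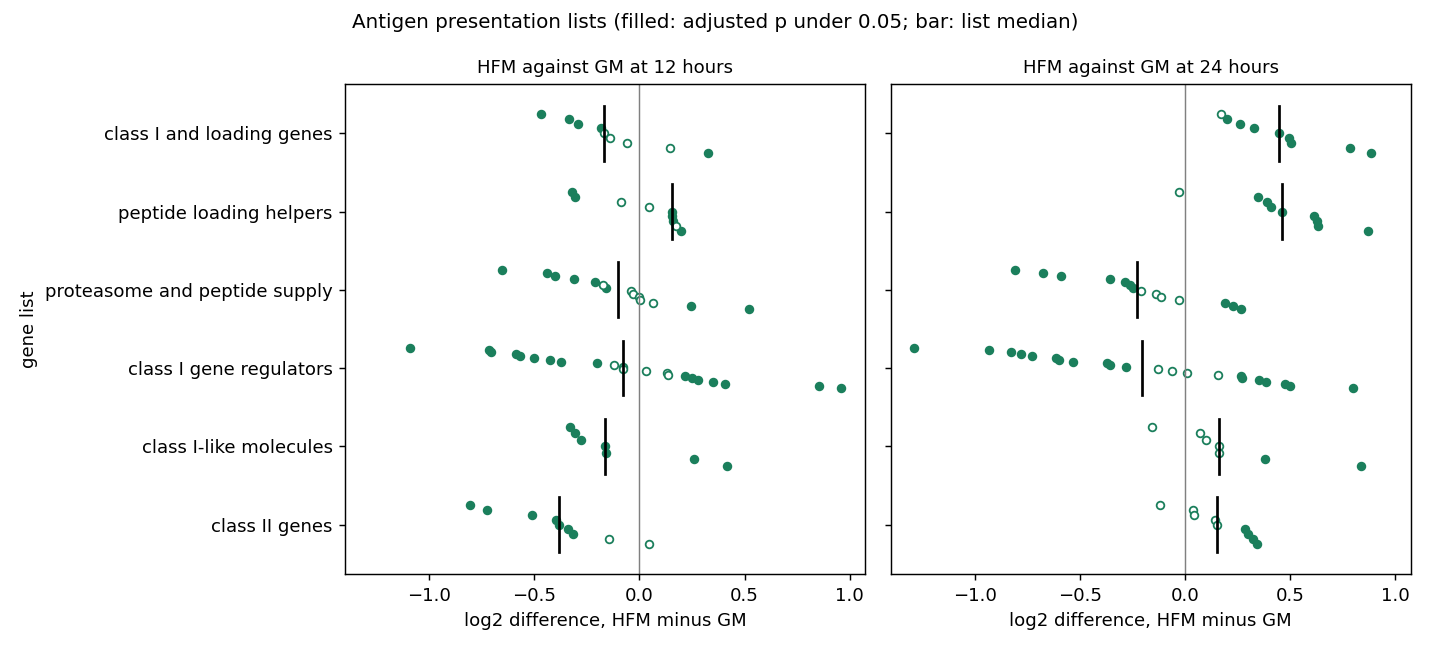
Log2 difference of HFM minus GM at 12 hours (left) and 24 hours (right) for the tested genes of 6 lists; each point is a gene, filled points have an adjusted p under 0.05, and the bar is the list median. The medians of the class I and loading genes (0.45) and of the loading helpers (0.46) lie right of 0 at 24 hours, and those of the regulators (-0.20) and of peptide supply (-0.23) lie left of it.

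Markers of other cell types differed in level and in direction at 24 hours. Of 8 leukocyte markers on the array 4 reached log2 4, and PTPRC, the pan-leukocyte antigen, stayed between 1.84 and 2.46 in every group. The mean level over the leukocyte list was 3.76 to 3.80 in HFM and 3.82 to 3.85 in GM at 24 hours, and 3.89 to 3.97 in HFM and 4.20 to 4.23 in GM at 12 hours. At 12 hours 3 of its 4 tested genes were lower in HFM, as were 4 of 5 endothelial markers (median -0.68), 4 of 5 epithelial markers (median -0.40) and 4 members, and the part of these lists in the members' values was not tested. Over the endothelial list the mean level was 3.36 to 3.53 in HFM and 3.55 to 3.58 in GM at 24 hours, and 3.46 to 3.51 in HFM and 3.87 to 3.92 in GM at 12 hours. The hepatocyte list lay at 3.79 to 3.85 in HFM and 3.71 to 3.78 in GM at 24 hours. Of its 4 tested genes 2 were higher, as the members were, and none was lower. They were SERPINA1 (0.54 ± 0.09) and TTR (0.225 ± 0.07), while ALB stayed below 2.5 throughout. The epithelial list lay at 6.85 to 6.93 in HFM and 6.94 to 7.01 in GM at 24 hours. At 12 hours it lay at 7.02 to 7.03 in HFM and 7.34 to 7.38 in GM. EPCAM stayed below the filter level, but KRT18 averaged 13.30 in HFM and 13.56 in GM at 24 hours, and KRT8 12.07 and 12.03. At that time 3 of the 5 tested epithelial genes were lower in HFM and none was higher.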

How the data were processed

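Total RNA of Sk-hep1 cells was measured on 12 Affymetrix arrays, and groups were taken from the sample titles. The authors deposited log2 intensities, and the submitters' processing notes name GCRMA, which corrects background, normalises and summarises probe sets. No source used here gives its version or says whether low probe sets were removed before deposit. Precision is limited by the number of arrays.

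In the platform annotation 41097 probe sets had 1 gene symbol, 1801 had several and 11777 had none, and only the first were named. The probe set with the highest mean stood for each gene, and a gene was tested where 3 or more arrays read at least log2 4, which left 13130. With limma 3.58.1 (R 4.3.3) a model of 4 group means was fitted to all 12 arrays (lmFit, contrasts.fit, eBayes). A call needs a p under 0.05 after Benjamini-Hochberg adjustment over all genes tested, and 29787 probe sets were fitted likewise for single probe sets. The pipeline was tested on simulated data. The members, the gene lists and the motifs were chosen with earlier results of these data known. Named genes were all members, up to 3 called genes of each list per time with the largest difference, IRF1, NLRC5, PSMB8, PSMB9, CALR and PDIA3 whatever their values, and the 3 genes most like HLA-B, B2M and TAP1. No label states that replicate numbers pair the arrays, so pairing was not part of the main model. Deviations of same-numbered arrays correlated at -0.17 to 0.42 over 18 pairs, and those of other arrays at -0.49 to 0.44 over 36 pairs.

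Alternatives for the values were no filter or one at log2 6, averaging the probe sets of a gene, every probe set, dropping probe set types x, s and a, centring each array and quantile normalising again. Centring used the median of the tested genes or tested probe sets of each array. Alternatives for the fit were a robust trended variance, fits of the compared groups alone, a replicate block, a term for the class of the 18 hybridisation control probe sets, a minimum change of 2-fold, and dropping 1 array at a time. Motifs were counted in RefSeq promoter windows of GRCh38.p14. Plots were made with matplotlib 3.10.9 (Python 3.11.15).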

Additional observations from a re-analysis of the deposited data

Results flagged for a closer look

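The effect of HFM differed between 24 and 12 hours by a test of the difference itself in 8 of the 9 members, each with a higher effect at 24 hours. The differences on the log2 scale were 0.63 for HLA-B, 0.69 for HLA-C, 0.62 for HLA-E, 0.43 for HLA-F and 0.53 for HLA-G. For the transporter and tapasin they were 0.91 for TAP1, 0.46 for TAP2 and 0.74 for TAPBP. The same test called 52.8% of all genes, 19.4% upward and 33.4% downward. Without HFM 12-hour replicate 1 the differences were 0.69 for HLA-B, 0.74 for HLA-C, 0.73 for HLA-E, 0.53 for HLA-F, 0.61 for HLA-G, 1.06 for TAP1, 0.53 for TAP2 and 0.84 for TAPBP, all of them called. With the hybridisation control class as a term they were between 0.23 for HLA-F and 0.61 for TAP1, but in that fit HFM at 12 hours meets GM only through replicate 1, the array that stood apart.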

How the results depend on the processing

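Over all alternatives 949 of 1015 values of the members kept their direction and their side of the threshold, 18 lost the call, 27 gained one and 9 reversed with a call in at least 1 of the fits. A further 12 changed sign with no call in either fit (HLA-F and B2M at 12 hours, TAP2 for time in GM, and HLA-E, HLA-F and HLA-G for time in HFM). Fitting only the compared groups gave 4 members called for time in HFM, against 6, and 4 at 12 hours, against 5. Leaving out 1 array in turn gave 5 to 7 members called at 12 hours, 7 to 9 at 24 hours, 8 for the difference between the times, 7 to 8 for time in GM and 5 to 6 for time in HFM. With a replicate block, although no label pairs the arrays by number, 6 members were called at 12 hours, 8 at 24 hours and 8 for the difference. That block gave 7 members called for time in GM and 6 for time in HFM, and 59.1% of all genes at 24 hours. Leaving out probe set types x, s and a left 5 members with a value (HLA-E, HLA-F, B2M, TAP2 and TAPBP), of which 1 was called at 12 hours, 5 at 24 hours, 5 for the difference and 2 for time in GM. HLA-F and B2M are then read by 221978_at and 232311_at, which passed the filter through HFM at 24 hours, so their calls there follow from the filter. A 2-fold minimum left 0 of the 9 main probe sets called at 24 hours, beside 7.49% of all genes. Without a filter 38% of all genes were called at 24 hours, since many low genes entered the test. Reversed at 12 hours were ERAP2 (-0.62), PSME3 (0.20), YWHAZ (-0.35) and 200904_at of HLA-E (0.22) with the control class as a term, ERAP1 (-0.17) and THBS1 (0.65) without types x, s and a, THBS1 (0.39) with the mean of probe sets, and PRKAR1A (0.30) without HFM 12-hour replicate 1 (-0.45 to 0.30 when 1 array at a time was left out). At 24 hours they were BCAP31 (0.15) with centred arrays, ERAP1 (-0.20) and PI4K2A (-0.25) without those types, and YWHAZ (-0.25) with the mean of probe sets. For time in GM they were HLA-F (0.047) without those types, and B2M (-0.29) and TAPBP (0.016) with the class. For time in HFM they were HLA-E (0.60) and HLA-F (1.10) without those types, HLA-E (0.20) and HLA-F (0.31) with the mean of probe sets, and HLA-E (0.18) and HLA-G (0.17) with centred arrays. The cause of these reversals was not tested. Type x probe sets limit what can be said of single HLA genes, and log2 values near 4 limit 232311_at, 221978_at and NLRC5.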
